A study of Mus musculus with 11 samples.

Results

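Glycolysis and hypoxia response genes were described in mouse embryonic stem cells from which the chromatin protein CTCF was removed and to which it was returned. The set comprised 33 listed gene symbols of the 55228 in the count table, 17 of them enzymes from hexokinase to lactate dehydrogenase. The other members encode glucose and lactate carriers, a kinase that limits pyruvate use, prolyl hydroxylases and further products of hypoxia-responsive genes. All 33 passed the filter on low counts, which left 16420 genes for testing, so no member was left out.

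All libraries came from the embryonic stem cell line EN52.9.1, called CTCF-AID, in which the endogenous CTCF protein can be degraded by adding auxin. Cells were grown in serum with leukemia inhibitory factor, and the auxin given was indole-3-acetic acid at 500 µM. EV untreated cells received no auxin and are labelled wild type (3 libraries, EV_UT). EV auxin cells are labelled as depleted of endogenous CTCF (2 libraries, EV_aux). FL auxin cells received auxin and had FL CTCF reintroduced (3 libraries, FL_aux). H373R auxin cells received auxin and had CTCF carrying the H373R change reintroduced (3 libraries), and the titles of these libraries read ZF4. Any other EV auxin library is not analysed here. All 4 groups carry the degradable allele of 1 line, the duration of auxin is not given in the sources used here, and no untreated cells with FL or H373R CTCF were among the libraries. Nothing in the labels says that replicates came from separate cultures, so the p-values measure the spread between these libraries, which may be technical.

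Glycolysis splits glucose into pyruvate in the cytosol, and lactate dehydrogenase turns pyruvate into lactate so that the pathway can continue without respiration. Hypoxia-inducible factors (HIFs) are transcription factors whose alpha subunits are hydroxylated by prolyl hydroxylases when oxygen is present and are then degraded through VHL. When oxygen is short, the HIFs accumulate, bind short response elements and raise transcription of glycolytic enzymes, glucose carriers, Vegfa and the hydroxylases themselves. Mouse embryonic stem cells in culture are strongly glycolytic.

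Total counts were 13465241 to 29902246 per library, and the mitochondrial share of counts was 0.554 to 0.801%. Auxin acts on the CTCF protein, so the Ctcf transcript does not check depletion. Ctcf was 293.9 to 343.6 CPM (library-scaled counts) in EV untreated cells, 358.6 and 363.8 in EV auxin, 328.1 to 349.6 in FL and 305.9 to 330.4 in H373R libraries. All FL and H373R libraries lay below both EV auxin libraries, so these counts do not show the reintroduced CTCF, which is taken from the labels. None of the 6 comparisons of Ctcf passed edgeR's quasi-likelihood test, with adjusted p from 0.0683 to 0.793. Deviations from the group mean followed the GC content of genes most closely in EV untreated replicate 1 (r = 0.56 across 16242 genes, which are not independent replicates). In EV untreated replicates 2 and 3 r was -0.38 and -0.32, and in FL replicates 1 and 2 it was 0.32 and -0.23. The other libraries had r from -0.15 to 0.15. Deviations from a shared mean depend on each other, so these values cannot show that 1 library alone was odd. The 10 markers of embryonic stem cells summed to 12200 to 13400 TPM (library-scaled abundance per gene length) in every library. Within that sum 1 marker was higher and 3 lower after auxin, 4 were higher and 2 lower with FL and 2 and 2 with H373R against EV auxin, and 1 was higher and 5 lower with H373R against EV untreated. Among them Esrrb fell by 0.33 and Klf4 rose by 0.35 on the log2 scale after auxin (edgeR adjusted p = 1.08e-04 and 5.32e-05). The 7 primitive endoderm markers summed to 18.7 to 19.9 TPM in EV untreated, 22.1 and 22.7 in EV auxin, 63.5 to 68.6 in FL and 40.9 to 45.6 in H373R libraries. With edgeR all 7 were called higher against EV auxin in FL and in H373R cells, and 4 of the 7 were lower in H373R than in FL cells. Against EV auxin DESeq2 called 7 higher with FL and 6 with H373R, and limma 7 and 5. The 8 fibroblast markers summed to 48.5 to 56.6 TPM in EV libraries and 63.4 to 73.6 TPM in FL and H373R libraries. Thy1 alone was 31.6 to 37.2 TPM in EV libraries and 42 to 44.8 TPM in FL and H373R libraries. Lum, Dcn or Postn was at 0 in each library. Of the 8, edgeR tested 4 and called 1 lower after auxin (0 with DESeq2 or limma). Against EV auxin edgeR called 3 higher with FL and 1 with H373R, DESeq2 3 and 2, and limma 2 and 1. In H373R against FL 1 was lower with edgeR and DESeq2 and 0 with limma. The edgeR shares of all tested genes are given with each comparison below. In bulk RNA, fewer cells of a type and less RNA per cell cannot be told apart.

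Promoter sequence was available in the RefSeq table of build GRCm38.p6 for 31 of the 33 members. The 250 bases before the most upstream annotated start are shown for 4 of the 5 members that fell after auxin. These members were chosen by that call, so their shared direction is not a further result. Capitals mark ACGTG or GCGTG, the core letters of the hypoxia response element, read on either strand (CACGT or CACGC on the strand shown). Each is printed 5′ to 3′ on the strand of its gene.
Hk2, chr6:82774455-82774704, minus strand: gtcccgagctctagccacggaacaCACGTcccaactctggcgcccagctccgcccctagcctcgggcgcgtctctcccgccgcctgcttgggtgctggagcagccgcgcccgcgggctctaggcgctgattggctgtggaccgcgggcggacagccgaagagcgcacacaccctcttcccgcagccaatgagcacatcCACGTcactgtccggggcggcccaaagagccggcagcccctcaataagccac
Slc2a1, chr4:119108495-119108744, plus strand: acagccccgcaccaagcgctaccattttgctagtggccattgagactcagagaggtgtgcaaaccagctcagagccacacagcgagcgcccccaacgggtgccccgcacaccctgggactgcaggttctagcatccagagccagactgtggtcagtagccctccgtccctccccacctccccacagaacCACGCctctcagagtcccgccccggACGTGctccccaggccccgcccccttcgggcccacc
Egln3, chr12:54203875-54204124, minus strand: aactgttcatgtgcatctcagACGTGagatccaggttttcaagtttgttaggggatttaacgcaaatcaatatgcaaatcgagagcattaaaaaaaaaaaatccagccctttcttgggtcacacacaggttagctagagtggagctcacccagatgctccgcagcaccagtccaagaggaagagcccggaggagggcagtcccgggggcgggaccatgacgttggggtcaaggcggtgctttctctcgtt
Vegfa, chr17:46032378-46032627, minus strand: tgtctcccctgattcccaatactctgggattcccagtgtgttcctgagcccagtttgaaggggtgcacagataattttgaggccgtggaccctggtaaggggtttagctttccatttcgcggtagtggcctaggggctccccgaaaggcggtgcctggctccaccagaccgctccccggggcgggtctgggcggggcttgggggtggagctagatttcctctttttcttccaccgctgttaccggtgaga
These letters occur 2 times in the Hk2 window, 2 times in the Slc2a1 window, once in the Egln3 window and not in the Vegfa window shown. A second annotated Vegfa start had 1 ACGTG and 1 GCGTG in its window. The fifth member, Slc2a3, is named only. ACGTG was found in 18 of the 31 members and in 16.6% of all 32851 promoter windows in the table, and GCGTG in 21 of 31 and 28.2%. Members with several starts were counted if any window held the motif. Counted by window as in the whole table, ACGTG was in 20 of the 44 member windows, GCGTG in 25 and either in 34, against 38.6% of all windows for either. CACGTG, which contains ACGTG, was found in 4 of 31 members, in 4 of their 44 windows and in 6.02% of all windows. CCANNAGNNGGC, a form of the CTCF motif, was found in 0 of 31 members and 2.07% of windows.

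The title of the series names CTCF as a protein that binds G-quadruplexes, so runs of G were also searched. The motif was 4 runs of at least 3 G with loops of 1 to 7 bases on either strand. It was present in 11 of 31 members, in 16 of their 44 windows and in 16.7% of all windows. It is shown for the 2 printed promoters that hold it, with the G runs in capitals and positions counted back from the start of the gene.
Slc2a1, strand opposite to the gene, -29 to -4: GGGcccgaaGGGGGcGGGGcctGGGG
Vegfa, strand of the gene, -73 to -47: GGGGcGGGtctGGGcGGGGcttGGGGG
The Slc2a1 stretch has 4 runs and the Vegfa stretch 5. A match to any of these letters is a description of sequence and not a binding site.

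Transcript levels differed widely among the members. Pkm, the pyruvate kinase of the last step of glycolysis, was the most abundant member at 2520 to 2860 TPM (group means), followed by the aldolase Aldoa at 2110 to 2530 and the lactate dehydrogenase Ldha at 1850 to 2070. The enolase Eno2 was the lowest at 5.55 to 7 TPM. The 17 enzymes together took 1.27% ± 0.0222 (SD, n = 3) of all TPM in EV untreated cells, 1.33% ± 0.0287 (n = 2) in EV auxin, 1.41% ± 0.0134 (n = 3) in FL and 1.47% ± 0.0249 (n = 3) in H373R cells. The share was lowest without auxin and highest with H373R CTCF. It rests on the same genes as the tests below and is given without one.

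**Figure D1:**
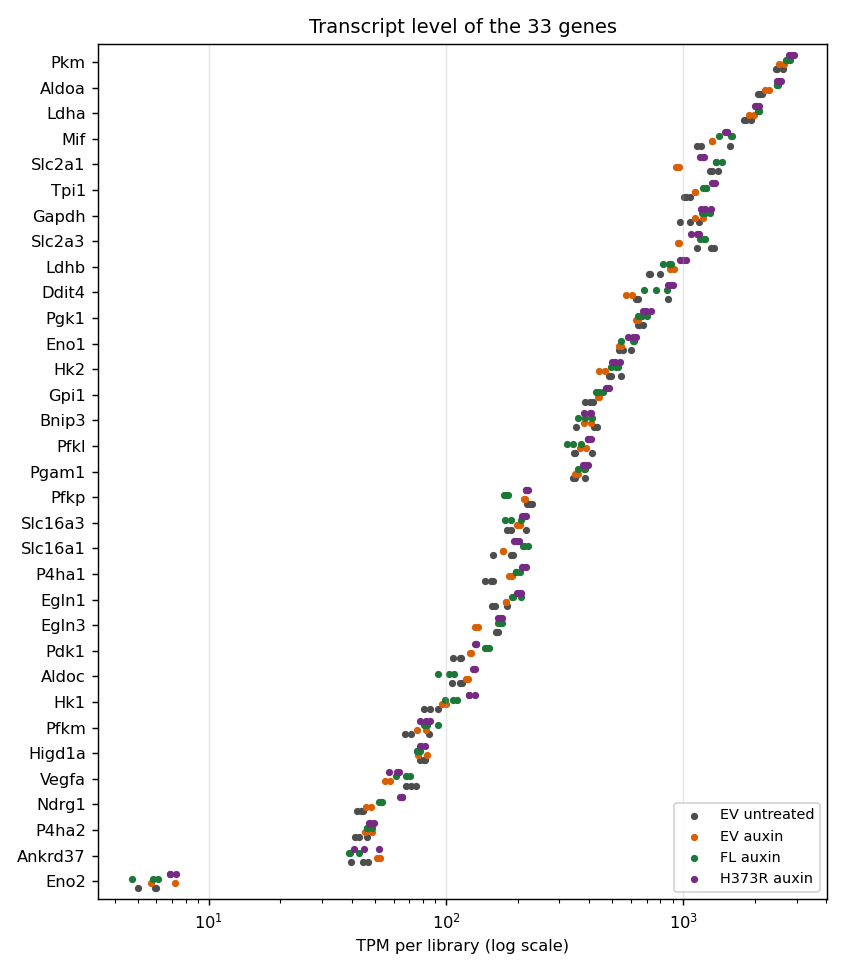
TPM of each of the 33 members in each of the 11 libraries on a log scale, ordered by mean level, with 1 point per library coloured by group. Pkm, Aldoa and Ldha are highest at group means of 1850 to 2860 TPM, Eno2 is lowest at 5.55 to 7 TPM, and the EV auxin points lie to the left for Slc2a1, Slc2a3 and Egln3.

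After auxin the transcripts of both glucose carriers were lower, and most glycolytic enzymes had no called change. Between EV auxin and EV untreated cells 8 of the 33 members passed an adjusted p of 0.05 (edgeR, quasi-likelihood test), against 20.7% of all tested genes. Of these, 5 were lower (Slc2a1, Slc2a3, Egln3, Vegfa and Hk2) and 3 were higher (Ldhb, Pdk1 and P4ha1), where 9.4% and 11.3% of all genes were. Among the 2614 genes of at least 100 CPM, 18.6% were called, 13.1% lower and 5.43% higher. The median log2 fold change was 0.022 over the members and 0.009 over all genes.

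Slc2a1 (chromosome 4, 119108745 to 119137330 in GRCm38.p6, protein coding) encodes GLUT1, a glucose carrier of the plasma membrane. It was 1304, 1245 and 1188 CPM in EV untreated libraries and 864.3 and 867.6 in EV auxin libraries. The groups did not overlap, and the log2 fold change was -0.52 ± 0.052 (SE; edgeR adjusted p = 3.19e-06). Slc2a3 (chromosome 6, 122727809 to 122802363) encodes GLUT3, a carrier with high affinity for glucose. It was 2210, 2603 and 2480 CPM without auxin and 1833 and 1773 with it, a log2 fold change of -0.43 ± 0.063 (edgeR adjusted p = 1.67e-04). Both carriers were thus lower in each depleted library than in any untreated library.

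Egln3 (chromosome 12, 54178981 to 54203874) encodes PHD3, a hydroxylase that marks HIF alpha subunits for degradation. Its CPM was 115.3, 117.1 and 116.1 in EV untreated and 96.38 and 91.03 in EV auxin libraries, a log2 fold change of -0.31 ± 0.051 (edgeR adjusted p = 4.35e-04). Vegfa (chromosome 17, 46016993 to 46032377), a secreted growth factor for blood vessels, was 84.95, 77.82 and 79.66 CPM against 62.39 and 63.97. Its log2 fold change was -0.36 ± 0.066 (edgeR adjusted p = 0.00126). Hk2 (chromosome 6, 82725025 to 82774454), a hexokinase that traps glucose as its phosphate, was 865.8, 793.6 and 764.5 CPM against 697.1 and 720.6. Its log2 fold change was -0.19 ± 0.058 (edgeR adjusted p = 0.0315). Depleted and untreated libraries did not overlap for any of the 3 genes, and the gap relative to the level was narrowest for Hk2. Separation of so few libraries can arise by chance, and it rests on the same values as the test. For these and all other genes it is thus a description and not further evidence. The share of all tested genes with such separation is not given here.

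Of the 3 members called higher, Ldhb is among the enzymes counted from hexokinase to lactate dehydrogenase, and P4ha1 and Pdk1 are not. P4ha1 encodes a collagen prolyl hydroxylase subunit and was 159.9, 170.6 and 170.7 CPM without auxin against 200.7 and 201.7 with it (log2 fold change 0.27 ± 0.048, edgeR adjusted p = 8.5e-04). Ldhb, the lactate dehydrogenase subunit of oxidative tissues, was 334.4, 302.4 and 298.2 CPM against 377.8 and 355.4 (log2 fold change 0.23 ± 0.057, edgeR adjusted p = 0.00794). Pdk1 phosphorylates and inhibits pyruvate dehydrogenase and was 222.2, 238.3 and 234.9 CPM against 263.1 and 251.8 (log2 fold change 0.15 ± 0.048, edgeR adjusted p = 0.0351). The groups did not overlap in any of the 3. Apart from the hexokinases and lactate dehydrogenases, of which Hk2 and Ldhb were called, there were 7 upper and 6 lower glycolytic enzymes. Of these, 0 passed with edgeR, DESeq2 or limma, where edgeR called 20.7% of all genes. The shares of all genes with DESeq2 and limma are not given here. At an unadjusted edgeR p under 0.05 were 1 upper and 0 lower enzymes, and 5366 of 16420 genes. The median log2 fold changes were 0.067 for the upper and -0.015 for the lower enzymes.

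The calls for Slc2a1, Slc2a3, Egln3, Vegfa and P4ha1 held under each of 24 alternatives. Hk2 lost its call without either EV auxin library, Ldhb without EV auxin replicate 1, and Pdk1 without any 1 of 8 libraries, among them EV untreated replicate 1. Without EV untreated replicate 1 there were 11 calls (5 higher, 6 lower), and without EV auxin replicate 1 there were 5.

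**Figure D2:**
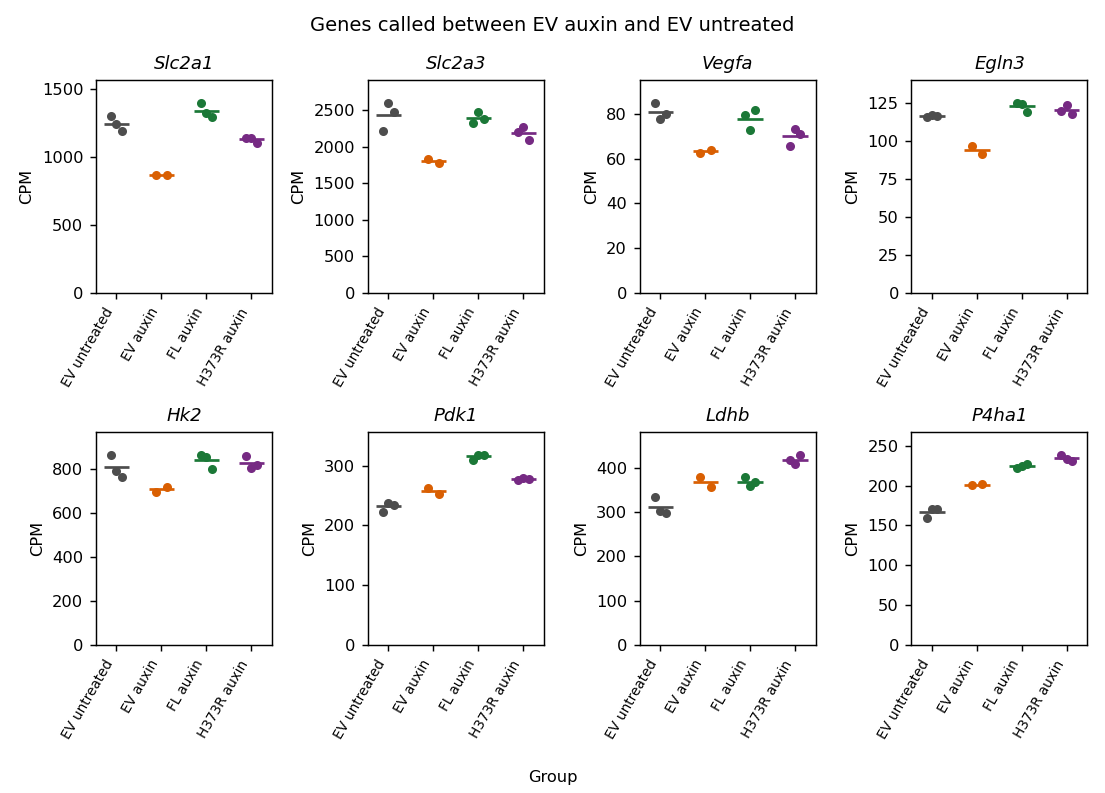
CPM per library, on axes from 0, of the 8 members called between EV auxin and EV untreated cells, with points for libraries and lines for group means. In Slc2a1 the EV auxin points at 864.3 and 867.6 CPM lie below all other libraries, as they do in Slc2a3, Vegfa, Egln3 and Hk2, while Pdk1, Ldhb and P4ha1 lie above EV untreated.

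With CTCF reintroduced, called members were mostly higher than in depleted cells. Both comparisons use the same 2 EV auxin libraries, so an error in those would enter both, and their values are given side by side. FL cells had 19 of 33 members called against EV auxin (16 higher and 3 lower), where 24.5% of all genes were called (11.1% higher and 13.4% lower). H373R cells had 17 called, 17 higher and 0 lower, where 21.7% of all genes were called (10% higher and 11.7% lower). Among genes of at least 100 CPM, 33.7% were called with FL (20.4% higher, 13.3% lower) and 32.9% with H373R (14.9% higher, 17.9% lower). The members' median log2 fold change was 0.16 with FL and 0.175 with H373R, and that of all genes was -0.014 and 0. With H373R no member was lower at an unadjusted edgeR p under 0.05 (23 higher) or with DESeq2 (18 higher) or limma (11 higher). Of all 16420 tested genes, 5643 had an unadjusted edgeR p under 0.05 in either direction, as had 1175 of the 2614 genes of at least 100 CPM. The shares of all genes called by DESeq2 or limma are not given here. The log2 fold change was above 0 in 27 members with FL and in 32 with H373R. Of all 16420 tested genes it was above 0 in 7872 with FL and in 8217 with H373R. Of the 2614 genes of at least 100 CPM it was above 0 in 1530 with FL and in 1343 with H373R. The primitive endoderm markers rose in the same comparisons, from at most 22.7 TPM summed in EV auxin to at least 40.9 in H373R and 63.5 in FL libraries, and their part in these results was not tested.

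The glucose carriers were higher with both proteins. Slc2a1 was 1400, 1327 and 1296 CPM in FL and 1141, 1142 and 1104 in H373R libraries, above both EV auxin libraries in each case. Its log2 fold change against EV auxin was 0.63 ± 0.052 with FL (edgeR adjusted p = 1.25e-06) and 0.38 ± 0.052 with H373R (edgeR adjusted p = 1.94e-04). Slc2a3 was 2329, 2475 and 2381 CPM in FL and 2202, 2274 and 2092 in H373R libraries, with log2 fold changes of 0.41 ± 0.063 and 0.28 ± 0.063 (edgeR adjusted p = 3.38e-04 and 0.00561). Against EV untreated cells Slc2a1 differed by 0.11 ± 0.046 with FL (edgeR adjusted p = 0.0808) and was lower by -0.14 ± 0.046 with H373R (edgeR adjusted p = 0.0194). The last call was lost without H373R replicate 2 or 3. The lactate carrier Slc16a1 (MCT1) was 203.8 and 198 CPM in EV auxin, 255.6, 270.4 and 254.9 in FL and 228, 241.8 and 233.5 in H373R libraries. It was called higher in both, by 0.37 ± 0.071 and 0.22 ± 0.07 on the log2 scale (edgeR adjusted p = 0.0015 and 0.0344). Slc16a3 (MCT4), the other lactate carrier, was not called in any comparison and had group means of 190 to 214 TPM.

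Among HIF-associated regulators, Egln3 was 125, 124.1 and 118.7 CPM in FL and 119.7, 123.2 and 117.8 in H373R libraries, so every reintroduced library exceeded every untreated library. Against EV auxin it was higher by 0.39 ± 0.051 and 0.36 ± 0.051 on the log2 scale (edgeR adjusted p = 9.27e-05 and 2.7e-04), and against EV untreated it was not called in either. Egln1, which encodes PHD2, the main oxygen-sensing hydroxylase, was 172.9, 150.4 and 152.2 CPM in EV untreated, 169.9 and 165.7 in EV auxin, 204.2, 190.3 and 183.5 in FL and 198, 192.7 and 197.2 in H373R libraries. It was called higher against EV auxin by 0.2 ± 0.064 with FL and 0.22 ± 0.064 with H373R (edgeR adjusted p = 0.034 and 0.0207). With the GC and length offset the H373R value of Egln1 was 0.119 and was still called (edgeR adjusted p = 0.0215). Vegfa was 79.21, 72.6 and 81.43 CPM in FL and 65.61, 73.11 and 70.77 in H373R libraries. It was called higher than EV auxin with FL (0.3 ± 0.067, edgeR adjusted p = 0.00446) and had a log2 fold change of 0.14 ± 0.067 with H373R (edgeR adjusted p = 0.14). The direct comparison of H373R with FL for Vegfa was -0.16 ± 0.059 (edgeR adjusted p = 0.137), so a difference between the 2 proteins was not called.

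Ddit4, an inhibitor of mTORC1 signalling induced by stress, had the largest log2 fold change of the members against EV auxin with H373R, and Slc2a1 had it with FL. Ddit4 was 401.1, 298.2 and 297.5 CPM in EV untreated, 266.9 and 275 in EV auxin, 410.7, 330.2 and 361.8 in FL and 416.8, 405.5 and 425.5 in H373R libraries. It was higher than EV auxin by 0.44 ± 0.11 with FL and 0.62 ± 0.11 with H373R (edgeR adjusted p = 0.00903 and 0.00123). Between EV auxin and EV untreated it was not called (-0.3 ± 0.11, edgeR adjusted p = 0.0698), and EV untreated replicate 1 lay far above the other 2 untreated libraries. Mif, a small cytokine and the most abundant of the other hypoxia response genes, was 311.3, 237.1 and 223.1 CPM in EV untreated, 260.8 and 254.4 in EV auxin, 321.9, 331.6 and 283.3 in FL and 299.2, 307.5 and 303.5 in H373R libraries. Its reintroduced libraries were all above the depleted ones, yet neither comparison passed (0.28 ± 0.11 and 0.24 ± 0.11, edgeR adjusted p = 0.0688 and 0.125). Bnip3 (mitophagy) and Higd1a (a mitochondrial protein induced by hypoxia) were not called in any of the 6 comparisons, with log2 fold changes between -0.05 and 0.05. Ankrd37 was the only member with a log2 fold change below 0 in H373R against EV auxin (-0.13 ± 0.099, edgeR adjusted p = 0.366), and it was called lower with FL (-0.3 ± 0.1, edgeR adjusted p = 0.0453).

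Most of the called enzymes differed from EV auxin by less than Slc2a1 did. An exception was Hk1 with H373R, at 0.41 ± 0.06 (edgeR adjusted p = 3.11e-04), and its values in each library are given with the H373R comparison. Aldoa, which splits fructose bisphosphate, was 2251 and 2102 CPM in EV auxin, 2518, 2553 and 2503 in FL and 2507, 2587 and 2469 in H373R libraries, higher by 0.21 ± 0.048 in each (edgeR adjusted p = 0.00479 and 0.00586). With an offset for the GC content and length of genes, Aldoa with H373R was 0.09054 (edgeR adjusted p = 0.273), which ended the call. Tpi1, the triose phosphate isomerase, was 813.4 and 795.6 CPM in EV auxin, 940.4, 946.1 and 898.9 in FL and 974.8, 1004 and 985 in H373R libraries, higher by 0.21 ± 0.048 and 0.3 ± 0.048 (edgeR adjusted p = 0.00589 and 6.54e-04). Reintroduced and depleted libraries did not overlap for either enzyme. Pkm was 3286, 3520 and 3272 CPM in EV untreated, 3531 and 3262 in EV auxin, 3699, 3913 and 3691 in FL and 3835, 3955 and 3732 in H373R libraries. It was called higher than EV auxin with H373R (0.18 ± 0.053, edgeR adjusted p = 0.0267), and with FL the same direction did not pass (0.15 ± 0.053, edgeR adjusted p = 0.0526). The Pkm call also ended with the offset (0.06414, edgeR adjusted p = 0.557). Ldha, which makes lactate, was 1590, 1709 and 1601 CPM in EV untreated, 1746 and 1618 in EV auxin, 1867, 1901 and 1854 in FL and 1796, 1862 and 1780 in H373R libraries. It was called with FL (0.16 ± 0.05, edgeR adjusted p = 0.034) and not with H373R (0.11 ± 0.05, edgeR adjusted p = 0.141). Hk2 was 866.3, 856 and 801.2 CPM in FL and 858.8, 803.7 and 818.6 in H373R libraries, all above EV auxin (0.25 ± 0.058 and 0.22 ± 0.058, edgeR adjusted p = 0.00663 and 0.0134). Gapdh and Pgam1 were called in neither comparison, with log2 fold changes of 0.13 to 0.17.

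With FL 6 calls (Slc2a1, Slc2a3, Slc16a1, Pdk1, Egln3 and Ndrg1) and with H373R 6 calls (Slc2a1, Tpi1, Ddit4, Hk1, Egln3 and Ndrg1) held under each of the 24 alternatives. All other named calls against EV auxin were lost without at least 1 library, except Pfkp with FL, which was lost with the GC and length offset. The FL count fell to 11 without EV auxin replicate 1 and 9 without replicate 2, and the H373R count to 9 and 7, and to 10 without H373R replicate 1. Without EV untreated replicate 1 the counts were 25 and 23. The share of all genes called in each such fit is not given here, so these shifts may not be particular to the members.

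**Figure D3:**
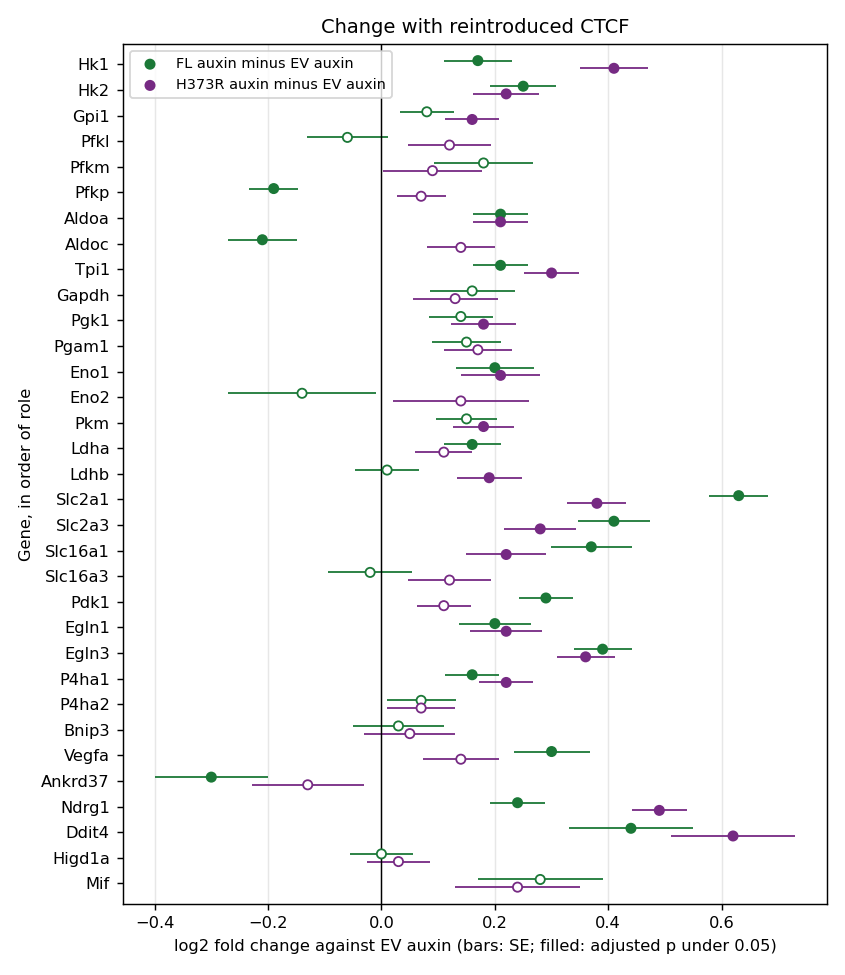
Log2 fold change of each member against EV auxin with FL and with H373R CTCF, with the standard error as bars and filled points for an adjusted p under 0.05. Most points lie right of 0, Slc2a1 is furthest right with FL at 0.63 and Ddit4 with H373R at 0.62, and Pfkp, Aldoc and Ankrd37 are filled on the left with FL.

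Between H373R and FL cells 7 of the 33 members differed, against 5.96% of all tested genes. Among genes of at least 100 CPM 5.93% differed (1.57% higher and 4.36% lower with H373R). Hk1, Pfkp, Aldoc, Ldhb and Ndrg1 were higher with H373R, where 3.14% of all genes were, and Slc2a1 and Pdk1 were lower, where 2.82% were. The median log2 fold change was 0.024 over the members and 0.002 over all genes. Primitive endoderm markers also differed between these groups (63.5 to 68.6 TPM summed in FL and 40.9 to 45.6 in H373R libraries), and their part in the result was not tested.

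Slc2a1 was lower with H373R by -0.25 ± 0.046 (edgeR adjusted p = 0.00387), and all 3 H373R libraries lay between the EV auxin and the FL libraries. Pdk1 was 310, 318.6 and 317.8 CPM in FL and 275.9, 279.7 and 278.4 in H373R libraries (-0.18 ± 0.043, edgeR adjusted p = 0.0189). Both groups exceeded the untreated libraries of Pdk1, by 0.44 ± 0.043 and 0.26 ± 0.043 (edgeR adjusted p = 2.16e-06 and 1.54e-04). With the GC and length offset the H373R value of Pdk1 was 0.401 (edgeR adjusted p = 5.91e-09).

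Ndrg1, a gene induced by hypoxia and differentiation, stepped up from group to group. It was 78.16, 74.64 and 75.98 CPM in EV untreated, 80.07 and 81.98 in EV auxin, 95.53, 95.38 and 95.41 in FL and 114.8, 115.3 and 112.5 in H373R libraries. No 2 groups overlapped, although EV auxin was not called against EV untreated (0.09 ± 0.049, edgeR adjusted p = 0.237). H373R exceeded FL by 0.26 ± 0.043 (edgeR adjusted p = 0.00214) and EV untreated by 0.58 ± 0.043 (edgeR adjusted p = 8.06e-08). Hk1, the hexokinase of most tissues, was 209.1, 185.4 and 191.9 CPM in EV untreated, 217.4 and 220 in EV auxin, 259.9, 234.2 and 245.5 in FL and 301.5, 287 and 285.8 in H373R libraries. It also had the order EV untreated, EV auxin, FL and H373R with no overlap. H373R exceeded FL by 0.24 ± 0.053 (edgeR adjusted p = 0.013) and EV untreated by 0.58 ± 0.053 (edgeR adjusted p = 7.51e-07), and EV auxin was not called against EV untreated (0.16 ± 0.06, edgeR adjusted p = 0.068).

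Pfkp, the platelet form of phosphofructokinase, and Aldoc, the brain form of aldolase, were lower in FL than in EV auxin and H373R cells. Pfkp was 818.9, 784.9 and 789.3 CPM in EV untreated, 753.6 and 745 in EV auxin, 661.8, 650.9 and 657.1 in FL and 793.6, 781.9 and 776.7 in H373R libraries. FL libraries were below all others, and H373R exceeded FL by 0.26 ± 0.039 (edgeR adjusted p = 9.72e-04). FL was lower than EV auxin by -0.19 ± 0.043 (edgeR adjusted p = 0.00494) and than EV untreated by -0.28 ± 0.039 (edgeR adjusted p = 5.48e-05). With the GC and length offset these Pfkp values were -0.08765, no longer called (edgeR adjusted p = 0.114), and -0.1028, still called (edgeR adjusted p = 0.0317). Aldoc was 101.2, 92.41 and 97.65 CPM in EV untreated, 104.2 and 104 in EV auxin, 95.96, 83.61 and 90.77 in FL and 113.7, 116.4 and 114.4 in H373R libraries. H373R exceeded FL by 0.35 ± 0.054 (edgeR adjusted p = 0.00129) and the H373R libraries were above all others. FL libraries of Aldoc overlapped EV untreated and were not called against them (-0.11 ± 0.054, edgeR adjusted p = 0.143). Ldhb was 379.1, 358 and 368.5 CPM in FL and 416.3, 407.4 and 429.5 in H373R libraries, a difference of 0.18 ± 0.051 (edgeR adjusted p = 0.0485).

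The calls for Slc2a1, Aldoc, Pfkp and Ndrg1 between H373R and FL held under each of the 24 alternatives. Pdk1 lost its call without any 1 of the H373R libraries and without FL replicate 2 or 3, Hk1 without FL replicate 2 or 3 or H373R replicate 1 or 3, and Ldhb without any 1 of 10 libraries. The count was 4 without FL replicate 2, FL replicate 3, H373R replicate 1 or H373R replicate 3, and 12 without EV untreated replicate 1.

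**Figure D4:**
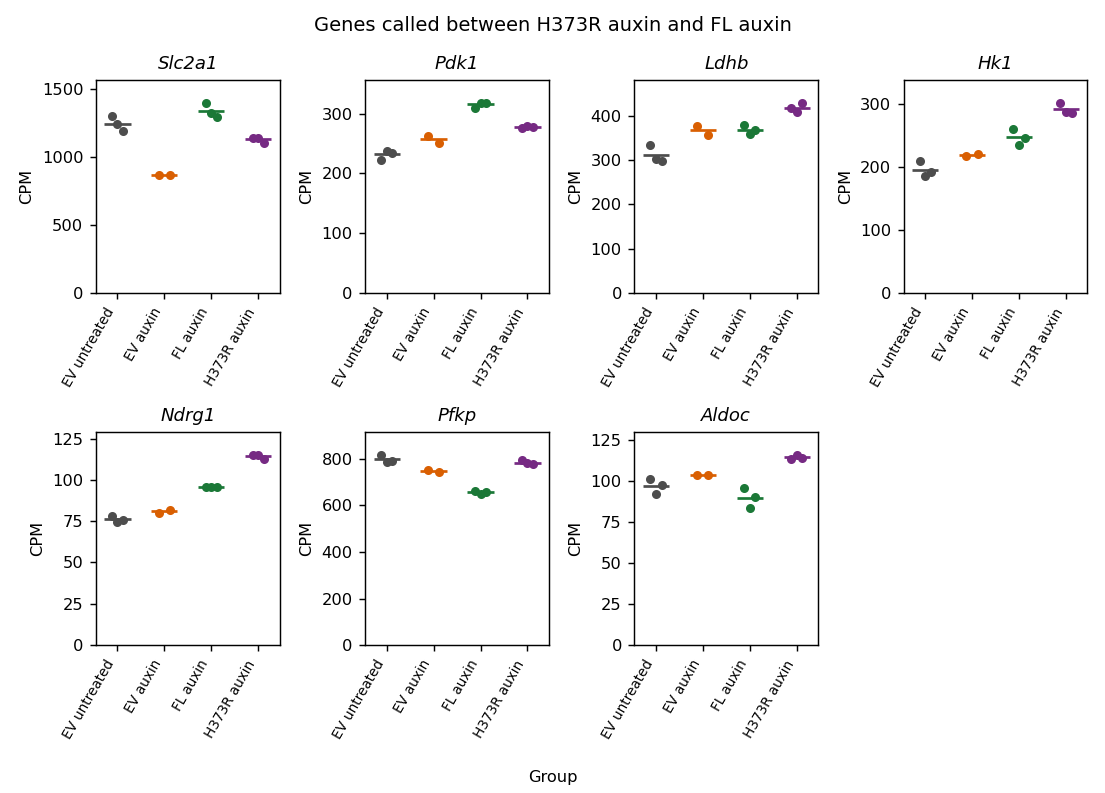
CPM per library, on axes from 0, of the 7 members called between H373R and FL cells, with points for libraries and lines for group means. H373R points lie below FL in Slc2a1 and Pdk1 and above FL in the other 5, and Ndrg1 steps from 74.64 to 78.16 CPM in EV untreated to 112.5 to 115.3 in H373R libraries.

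Among the enzyme steps from hexokinase to lactate dehydrogenase, the mix of isoenzymes varied most in percentage points between groups at the hexokinase step. It varied least at the enolase step, where Eno2 was 0.931 to 1.18% of TPM (group means). Outside these steps, the HIF hydroxylase and lactate carrier pairs varied more than hexokinase, and the glucose carrier pair varied less. Egln1 was 50.2% ± 2.1 (SD) of the TPM of Egln1 and Egln3 in EV untreated and 57% ± 0.55 in EV auxin cells. Slc16a1 was 46.2% ± 0.63 of the TPM of Slc16a1 and Slc16a3 in EV auxin and 53.1% ± 2.4 in FL cells. In EV untreated cells this share was 47.8% ± 5.1, a wide spread. Slc2a1 was 49.8% of the TPM of Slc2a1 and Slc2a3 in EV auxin and 53.6% in FL cells. Hk1 made up 14.5% ± 0.44 (SD, n = 3) of hexokinase TPM in EV untreated, 17.8% ± 0.22 (n = 2) in EV auxin, 17% ± 0.84 (n = 3) in FL and 19.8% ± 0.19 (n = 3) in H373R cells. Ldhb made up 28.7% ± 1.8, 31.5% ± 0.23, 29.3% ± 0.8 and 32.7% ± 1.1 of lactate dehydrogenase TPM in the same order. Aldoc made up 5.05% ± 0.32, 5.17% ± 0.23, 3.9% ± 0.29 and 4.92% ± 0.071 of aldolase TPM. Pfkp made up 33.6% ± 1.8, 31.9% ± 0.81, 29.4% ± 1.1 and 31.2% ± 0.18 of the phosphofructokinase TPM of Pfkl, Pfkm and Pfkp. Aldoa, Ldha, Hk2 and Pfkl were the main isoenzymes of their steps in every group. These shares are descriptions of members already tested above.

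Against EV untreated cells, 17 members were called with FL (16 higher and 1 lower) and 19 with H373R (16 higher and 3 lower). Of all genes 36.9% were called with FL (17.7% higher, 19.2% lower) and 44.4% with H373R (22.3% higher, 22.1% lower). Of genes of at least 100 CPM, 41.4% were called with FL (18.2% higher, 23.2% lower) and 48.4% with H373R (16.8% higher, 31.6% lower). Both comparisons share the 3 untreated libraries. All 7 primitive endoderm markers were also higher in both (18.7 to 19.9 TPM summed in EV untreated libraries), and their part in these results was not tested. P4ha1 was 222.6, 224.1 and 227.6 CPM in FL and 238.9, 233.9 and 230.3 in H373R libraries, above untreated by 0.43 ± 0.043 and 0.49 ± 0.043 (edgeR adjusted p = 3.15e-06 and 4.39e-07). Together with its earlier values, P4ha1 was lowest in untreated, intermediate in EV auxin and highest in reintroduced libraries. Tpi1 exceeded untreated by 0.3 ± 0.043 and 0.39 ± 0.043 (edgeR adjusted p = 7.98e-05 and 4.13e-06). The lower calls were Pfkp with FL, and Slc2a1, Slc2a3 and Vegfa with H373R. The Slc2a3 call was lost without EV untreated replicate 2 or 3, EV auxin replicate 1, FL replicate 3, or H373R replicate 1 or 3, and with upper quartile scaling, limma without a TPM filter, the fit of only these 2 groups, and the GC and length offset (-0.0433, edgeR adjusted p = 0.352). With that offset Slc2a1 was -0.2656 (edgeR adjusted p = 1.57e-06). Vegfa was below untreated with H373R by -0.21 ± 0.058 (edgeR adjusted p = 0.00787) and with FL had a log2 fold change of -0.05 ± 0.059 (edgeR adjusted p = 0.505).

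**Figure D5:**
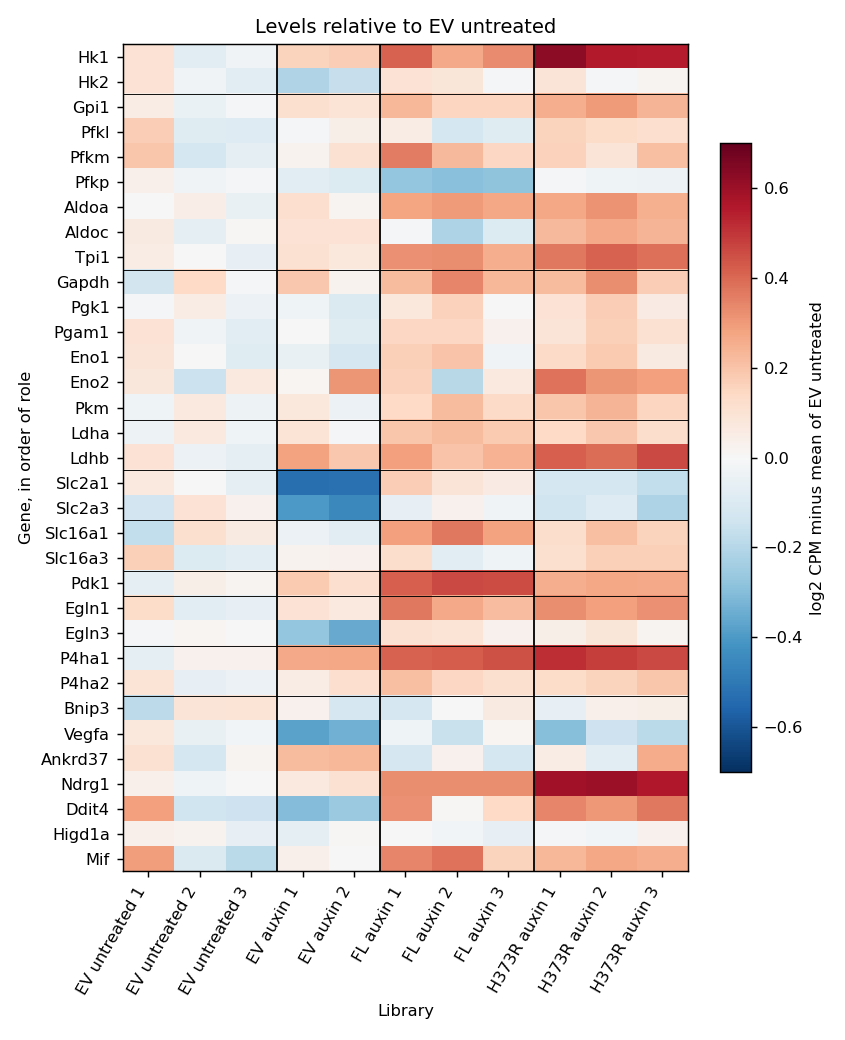
Log2 CPM of the 33 members in 11 libraries minus the mean of the EV untreated libraries, with genes in order of role and lines between roles and groups. Slc2a1, Slc2a3, Egln3 and Vegfa are blue (lower) in EV auxin, Hk1, Ndrg1 and P4ha1 are deepest red (higher) in H373R libraries, and Pfkp is blue in the FL libraries.

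Other genes of the pathway were read from lists. The edgeR shares of all tested genes given above apply to these lists too. They were 11.3% higher and 9.4% lower after auxin, and 3.14% and 2.82% in H373R against FL. Against EV auxin they were 11.1% and 13.4% with FL and 10% and 11.7% with H373R. At an unadjusted edgeR p under 0.05 were 5366 of 16420 genes after auxin and 3375 in H373R against FL. The shares with DESeq2 or limma are not given here, so list counts from those tools cannot be set against all genes. Of 15 regulators of the HIF pathway, 1 was higher and 1 lower in EV auxin against EV untreated, 3 were higher with FL and 2 with H373R against EV auxin, and 0 differed between H373R and FL with edgeR, DESeq2 or limma (2 at an unadjusted p under 0.05). Hif1a, an oxygen-sensitive alpha subunit, was not called after auxin (-0.09 ± 0.092, edgeR adjusted p = 0.529) and was higher with FL than in EV auxin (0.28 ± 0.093, edgeR adjusted p = 0.0408). Epas1, which encodes HIF-2 alpha, was higher with FL by 0.25 ± 0.075 (edgeR adjusted p = 0.0246) and differed by 0.2 ± 0.073 with H373R (edgeR adjusted p = 0.0599). Arnt (the shared beta subunit), Vhl (the ubiquitin ligase subunit) and Hif1an (the asparagine hydroxylase of HIF) were called in none of the 6 comparisons. Arnt2, a related partner subunit, was lower after auxin (-0.29 ± 0.092, edgeR adjusted p = 0.0377), and Os9, a lectin of the endoplasmic reticulum, was higher (0.29 ± 0.099, edgeR adjusted p = 0.0487). DESeq2 and limma called 0 of the 15 after auxin, where 1 was higher and 3 lower at an unadjusted edgeR p under 0.05. With FL against EV auxin DESeq2 called 4 higher and limma 0.

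Of 36 further hypoxia targets, 11 were higher and 1 lower after auxin, with a median log2 fold change of 0.095 against 0.009 over all genes. DESeq2 called 9 higher and 1 lower, and limma 11 and 0. Gys1, the glycogen synthase of most tissues, had the smallest adjusted p of these. It was 110, 96.6 and 99.8 CPM in EV untreated, 238 and 252 in EV auxin, 291, 267 and 270 in FL and 296, 297 and 283 in H373R libraries. It rose after auxin by 1.26 ± 0.061 on the log2 scale (edgeR adjusted p = 1.29e-09), more than any member moved in that comparison, and the reintroduced libraries stayed above untreated. Stc2, a secreted glycoprotein, was higher after auxin (0.39 ± 0.055, edgeR adjusted p = 1.33e-04) and lower than EV auxin with FL (-0.39 ± 0.056, edgeR adjusted p = 1.72e-04) and H373R (-0.28 ± 0.055, edgeR adjusted p = 0.00253). With FL 6 of the 36 were higher and 9 lower than EV auxin, with H373R 10 were higher and 5 lower, and between H373R and FL 4 were higher and 0 lower (0 lower with DESeq2 and limma, 1 at an unadjusted p under 0.05). The 4 included Bhlhe41, a transcriptional repressor (0.33 ± 0.065, edgeR adjusted p = 0.00645), and Hmox1, heme oxygenase (0.27 ± 0.047, edgeR adjusted p = 0.00303).

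Of 25 other glycolysis enzymes and carriers 20 were tested, and 2 were higher and 2 lower after auxin (1 and 1 with DESeq2, 1 and 0 with limma). Pfkfb1, which makes an activator of phosphofructokinase, was higher (0.34 ± 0.079, edgeR adjusted p = 0.00648). Fbp2, a gluconeogenic phosphatase, was lower with H373R than with FL (-0.63 ± 0.12, edgeR adjusted p = 0.00458). Among 13 genes of pyruvate import and oxidation, 2 were lower after auxin (2 with DESeq2, 0 with limma). Against EV auxin 4 were higher and 1 lower with FL, and 3 were higher with H373R (4 with DESeq2, 1 with limma). Pdha1, the catalytic alpha subunit of pyruvate dehydrogenase, fell after auxin by 0.16 on the log2 scale (edgeR adjusted p = 0.0384) and was higher with FL by 0.28 ± 0.051 (edgeR adjusted p = 0.00107). Of 11 pentose phosphate genes 2 were higher after auxin, while DESeq2 called 1 higher and 2 lower and limma 1 higher. With FL 3 were higher and 1 lower, and with H373R 5 were higher, against EV auxin. The smallest adjusted p after auxin was that of H6pd, the glucose-6-phosphate dehydrogenase of the endoplasmic reticulum (0.51 ± 0.073, edgeR adjusted p = 1.39e-04). Of 6 serine synthesis and folate genes 1 was lower after auxin. Against EV auxin 4 were higher with FL (limma 2 higher and 1 lower), and 3 were higher and 1 lower with H373R. The gene lower after auxin was Mthfd2, a mitochondrial folate enzyme, which was lower by -0.44 ± 0.048 after auxin (edgeR adjusted p = 9.52e-06) and higher by 0.31 ± 0.048 with FL and 0.38 ± 0.048 with H373R (edgeR adjusted p = 3.97e-04 and 1.18e-04).

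Several members have near-identical copies in the genome. Eno1b, a copy of Eno1 with 3147 to 7515 counts per library, reached 30.3% of the Eno1 count, so the enolase values are uncertain where reads could belong to either. The other listed copies reached at most 1.22% of their member's count. Listed were Eno1b and symbols formed from a member symbol followed by -ps or -rs. Copies under other symbols were not searched, so values of other members may be uncertain too. Whether the counting used strand is not given in the sources used here, so genes that overlap on opposite strands are also uncertain.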

How the data were processed

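Per the labels' protocols, column-purified RNA went into a strand-specific library kit and Illumina NovaSeq sequencing. The authors deposited raw counts per gene symbol, made with featureCounts of Subread 2.0.3 on mm10 (GRCm38) per the submitters' processing notes. They also deposited TPM values for the same libraries. The aligner, annotation and strand setting are not given in the sources used here. Libraries were grouped by their labels.

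The test of the counts was that of edgeR 4.0.16 under R 4.3.3 (TMM scaling, filterByExpr by group, a group-means model over all 11 libraries, quasi-likelihood F test, Benjamini-Hochberg adjustment over 16420 genes, threshold 0.05). Standard errors are those implied by the F statistic. CPM is TMM-scaled, and levels are compared between genes as TPM. Scripts were tested on simulated data.

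Values per library are given for members called with a log2 fold change of at least 0.5 and for the most abundant member of each role, with other called members beside them, and up to 3 genes of each other list by smallest adjusted p in 2 comparisons, with the main HIF regulators. One such list gene is not reported here. The members, lists and rule were chosen with earlier results of these data known, and the background of genes of at least 100 CPM was added after the data were seen. Alternatives changed the scaling (upper quartile or RLE), the tool (DESeq2 1.42.0), the filter (none, or 10 counts in every library), the libraries fitted (the 2 groups compared, or all but 1), a replicate block, an offset for GC content and length with or without that block, and the threshold (0.01). The offset with the block changed 2 choices at once, and limma changed the tool, input and filter together. A limma 3.58.1 fit on log2 TPM used a pseudocount of 1 or 0.1, and required 1 TPM in 2 libraries or nothing.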

Additional observations from a re-analysis of the deposited data

How the results depend on the processing

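Of 87 called changes of members over the 6 comparisons, 43 held under all 24 alternatives, 44 were lost under at least 1 and 1 changed sign. The count for EV auxin against EV untreated (8) was 5 with only those 2 groups fitted and 13 with the GC and length offset and the replicate block. For FL against EV auxin (19) it was 8 with limma and no TPM filter and 12 at an adjusted p under 0.01. For H373R against EV auxin (17) it was 11 with limma on log2(TPM + 1), 10 with a pseudocount of 0.1, 7 with no TPM filter and 9 at an adjusted p under 0.01. For H373R against FL (7) it was 4 at an adjusted p under 0.01. Leaving out 1 library gave 5 to 11, 9 to 25, 7 to 23 and 4 to 12 calls in these comparisons, and 13 to 21 for FL and 14 to 25 for H373R against EV untreated. Pkm in H373R against EV untreated (0.19) turned to -0.01471 with the GC and length offset and -0.01203 with the offset and the replicate block. The share of all genes called under each alternative is not given here. Shifts in the member counts, here and above, thus cannot be read as particular to the members. The causes were not tested. Same-numbered libraries of different groups had correlated deviations over 0.1 in 3 of 15 pairs (r from -0.087 to 0.282) and other-numbered ones in 1 of 30. Between EV untreated and FL each library correlated best with its own number (0.282, 0.119 and 0.096), a hint from the data and not the design, and the labels tie the numbers to nothing shared, so the samples were taken to share only a number. With the replicate block the counts were 9, 23, 19 and 7, and 17 and 22 against EV untreated. The 2 EV auxin libraries limit every comparison that uses them, and without molecular identifiers duplicate reads cannot be told from separate molecules.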
